A study of Mus musculus with 4 samples.

Results

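Transforming growth factor-beta (TGF-beta), bone morphogenetic proteins (BMPs) and activins form a single family of secreted ligands, and 38 genes of this signalling family were examined in epididymal fat, a visceral adipose depot of male mice. The genes were chosen by name, with earlier results of these data known but no threshold on their values, from the 24421 gene symbols measured. They comprised 10 ligands, 7 type I receptors, 5 type II receptors or co-receptors, 8 Smads, 3 extracellular antagonists, 4 latent TGF-beta binding proteins and Tgfbi, a matrix protein named for its induction by TGF-beta. All 38 had a row in the data.

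All mice were wild-type (WT) C57BL/6J males that ended the experiment obese on high-fat diet (HFD). WC1 mice, the weight-cycling group, began HFD at 8 weeks of age, ate it for 8 weeks, lost weight during 2 weeks of standard diet and returned to HFD for 6 weeks. Ctrl mice, the high-fat control group, began HFD at 10 weeks of age and ate it for 14 weeks without a break. Total HFD exposure (14 weeks) and final age (24 weeks) were therefore equal, and no lean group or group still in weight loss was among these libraries. RNA-seq of poly(A) RNA gave 2 libraries per group. Reads recovered from the deposited signal and summed over genes numbered between 61465029 and 90965297 per library, and sequenced totals may differ. The labels do not say whether a library came from 1 mouse or from a pool, so p-values measure the spread between these libraries, which may be technical.

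A ligand of this family brings together type II and type I receptors, which are kinases, and the type I receptor phosphorylates receptor Smads. TGF-beta and activin receptors act mainly through Smad2 and Smad3, BMP receptors mainly through Smad1, Smad5 and Smad9, and both sets enter the nucleus with Smad4. Smad6 and Smad7 are inhibitory Smads that the pathway itself induces, and follistatins and gremlins bind ligands outside the cell. TGF-beta is stored in the matrix in a latent complex with latent TGF-beta binding proteins. In adipose tissue the TGF-beta branch is known for fibroblast activation and matrix deposition, the BMP branch for commitment and differentiation of adipocyte precursors, and the activin receptor encoded by Acvr1c, ALK7, for restraint of lipolysis in adipocytes.

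Promoters are shown for 3 members that textbook accounts treat as products of the pathway as well as parts of it: Tgfbi, Fstl3, which encodes an activin-binding follistatin-like protein, and Smad6. Sequences were RefSeq windows of the 250 bases before the transcription start (build GRCm38), printed 5′ to 3′ on the strand of the gene and without bases that an annotated exon covers. Capitals mark matches, on either strand, to CAGAC, the box bound by Smad3 and Smad4, to GGCGCC, a GC-rich element bound by BMP Smads, and to AGGTCA, an element bound by many nuclear receptors.
Tgfbi, chr13:56609336-56609522, plus strand: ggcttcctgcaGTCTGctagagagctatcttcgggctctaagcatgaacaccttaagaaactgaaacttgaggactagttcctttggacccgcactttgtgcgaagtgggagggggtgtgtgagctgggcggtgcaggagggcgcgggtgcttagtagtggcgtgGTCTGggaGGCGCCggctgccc
Fstl3, chr10:79777024-79777271, plus strand: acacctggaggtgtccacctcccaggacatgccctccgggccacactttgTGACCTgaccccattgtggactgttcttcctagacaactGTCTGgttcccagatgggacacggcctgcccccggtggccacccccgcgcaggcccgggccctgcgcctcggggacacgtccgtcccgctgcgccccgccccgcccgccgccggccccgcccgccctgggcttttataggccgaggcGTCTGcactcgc
Smad6, chr9:64022060-64022309, minus strand: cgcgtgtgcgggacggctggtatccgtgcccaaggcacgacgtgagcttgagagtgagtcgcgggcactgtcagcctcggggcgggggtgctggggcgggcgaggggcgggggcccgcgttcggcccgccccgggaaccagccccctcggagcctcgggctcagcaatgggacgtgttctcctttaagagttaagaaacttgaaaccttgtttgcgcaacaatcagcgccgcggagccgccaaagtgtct
Distances are counted to the RefSeq start, not to the end of the printed bases. The last 63 bases of the Tgfbi window and the last 2 of the Fstl3 window were left out as annotated exon. The Tgfbi window thus ended at chr13:56609585, inside the gene position given below. In Tgfbi, CAGAC matches began 239 and 85 bases before the RefSeq start and a GGCGCC match began 77 bases before it. In Fstl3, CAGAC matches began 161 and 14 bases before the start and an AGGTCA match 200 bases before it, and no match overlapped another. The Smad6 window held none of the letters searched, which says only that they were not in this window. Of 32851 RefSeq windows of this length, 42.2% held CAGAC, 9.59% held GGCGCC and 14.0% held AGGTCA, so a match is a description of the sequence and not a binding site. A window existed for 29 of the 38 members.

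The question was how weight cycling left the ligands, receptors, Smads and antagonists of this family compared to continuous HFD. Levels below are given in CPM, the deposited read signal scaled to library size, and differences as log2 fold changes of CPM + 1, WC1 minus Ctrl, with the standard error (SE) of limma. A gene is called when its limma p, adjusted by the Benjamini-Hochberg method over all genes tested, is under 0.05. Of the 38 members, 35 reached 0.5 CPM in at least 2 libraries and were tested. Inhba and Smad9 were under this level, and Grem1, which encodes gremlin, had 0 reads in all 4 libraries, which allows a level of up to between 0.0345 and 0.0492 CPM for counting error only. Of the 35 members tested, 7 were called higher in WC1 (20.0%), compared to 10.2% of all 14106 genes tested, and 2 were called lower (5.71%), compared to 7.71% of all genes. The 7 higher genes were Inhbb, Bmp2, Acvr1c, Bmpr1a, Smad6, Fstl3 and Ltbp3, and the 2 lower genes were Gdf15 and Tgfbi. The WC1 libraries lay above both Ctrl libraries in 16 of the 35 (45.7%, against 32.7% of all genes) and below both in 9 (25.7%, against 36.6% of all genes), and the groups overlapped in the other 10. The median log2 fold change of the members tested was 0.04, compared to -0.02 for all genes tested. These counts describe the members that passed the filter, not all 38, and Acvr2b and Bmpr1b, which reached 0.5 CPM only in the group where they were higher, count as separated through that filter. The members were also chosen with earlier results of these data known, so their shares are not independent of these data. The plot of all members by library shows the levels by role.

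**Figure D1:**
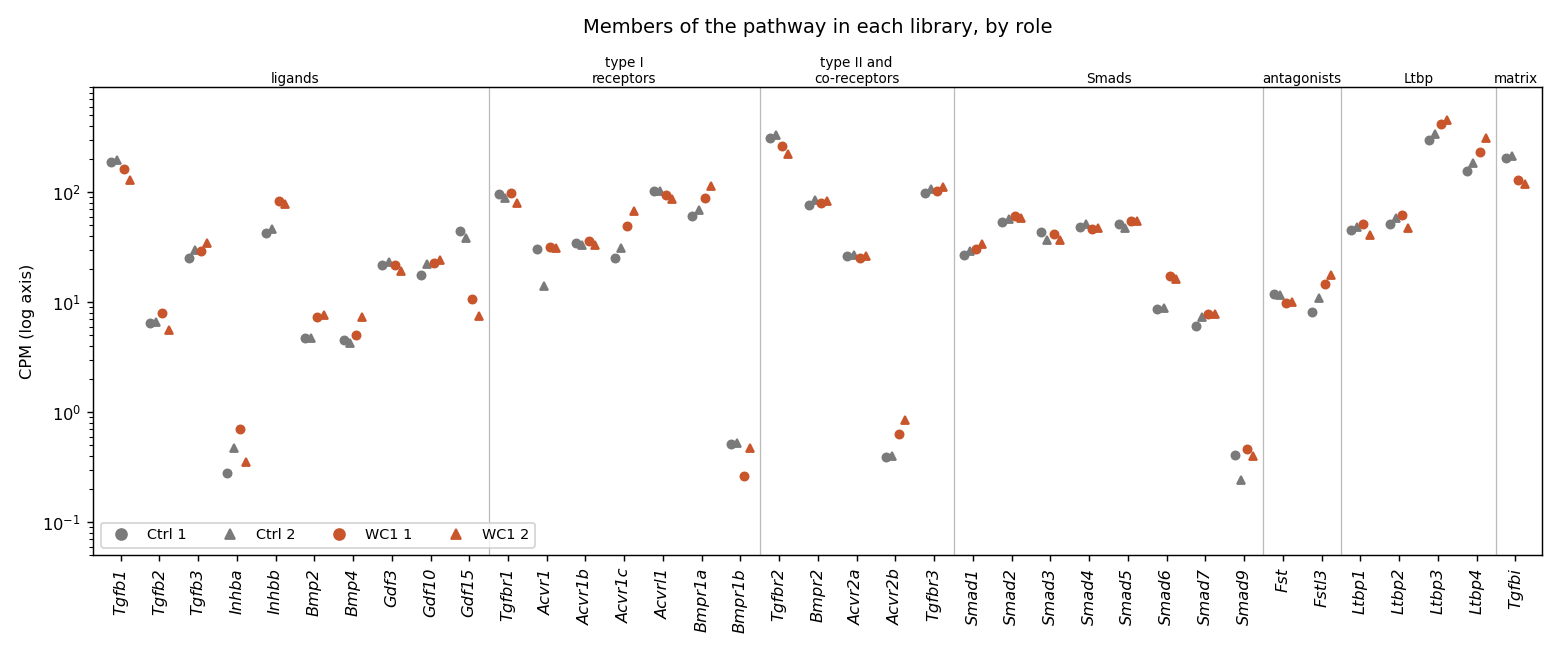
CPM (log axis) of 37 members in each library, grouped by role, with grey symbols for Ctrl and orange symbols for WC1 (circles, library 1, and triangles, library 2). Gdf15 and Tgfbi sit lower in both WC1 libraries, Inhbb, Bmp2, Acvr1c, Bmpr1a, Smad6, Fstl3 and Ltbp3 sit higher, and Ctrl 2 stands apart from the other libraries for Acvr1. Grem1, at 0 in all 4 libraries, cannot be drawn on a log axis.

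Among the ligands, Gdf15 showed the largest difference in either direction of the 35 members tested. Gdf15 (chr8:70629393-70632456, minus strand, GRCm38, as for all gene positions given here) encodes a stress-induced cytokine that limits food intake through a receptor in the hindbrain and is only a distant relative of the BMPs. It stood at 44.8 and 37.99 CPM in the Ctrl libraries and at 10.7 and 7.45 CPM in WC1. Both WC1 libraries were far below both Ctrl libraries, with a mean WC1 level of 0.219 times that of Ctrl, and Gdf15 fell by 2.09 ± 0.18 on the log2 scale (adjusted p = 0.0116, limma).

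Inhbb and Bmp2 were the ligands that rose. Inhbb (chr1:119415465-119422248, minus strand) encodes the beta B subunit of activins and inhibins and is known to be abundant in adipocytes. It stood at 42.3 and 46.3 CPM in the Ctrl libraries and at 83.5 and 78.4 CPM in WC1, a log2 fold change of 0.86 ± 0.08 (adjusted p = 0.0123, limma). The libraries of a group were close to each other and the groups were well separated. The beta A subunit gene, Inhba, was low, at 0.278 and 0.471 CPM in the Ctrl libraries and 0.705 and 0.350 CPM in WC1, and its groups overlapped. Bmp2 (chr2:133552159-133562885, plus strand), a BMP ligand, stood at 4.69 and 4.76 CPM in the Ctrl libraries and 7.29 and 7.70 CPM in WC1, a log2 fold change of 0.57 ± 0.10 (adjusted p = 0.0290, limma). The related ligand Bmp4, a commitment factor for adipocyte precursors, was also above both Ctrl libraries in WC1, but its WC1 libraries differed from each other. Its values were 4.55 and 4.25 CPM in the Ctrl libraries and 5.08 and 7.39 CPM in WC1, and the difference of 0.40 ± 0.18 did not pass the test (adjusted p = 0.173, limma). The Bmp4 difference was 0.64 without WC1 1, where it was called (adjusted p = 0.0163), and 0.17 without WC1 2, where it was not.

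The 3 TGF-beta ligand genes were not called. Tgfb1, the main fibrogenic ligand, stood at 189 and 197 CPM in the Ctrl libraries and at 163 and 130 CPM in WC1. WC1 was below both Ctrl libraries, and the log2 difference of -0.40 ± 0.12 missed the threshold (adjusted p = 0.0824, limma), as it did in edgeR (0.0935) and on the TPM scale (0.163). Of 7 other settings with all libraries, only DESeq2 on recovered reads called it (adjusted p = 0.0279). The Tgfb1 difference was -0.57 without WC1 1, where it was called (adjusted p = 0.00245), and -0.24 without WC1 2, where it was not. Tgfb2 ranged from 5.58 to 8.00 CPM and Tgfb3 from 25.2 to 34.3 CPM, with overlapping groups. The log2 differences were 0.03 ± 0.17 for Tgfb2 and 0.20 ± 0.13 for Tgfb3. Gdf3 and Gdf10, further ligands of the family, stood between 17.7 and 24.4 CPM and differed by -0.14 ± 0.10 and 0.23 ± 0.13 on the log2 scale, both without a call.

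**Figure D2:**
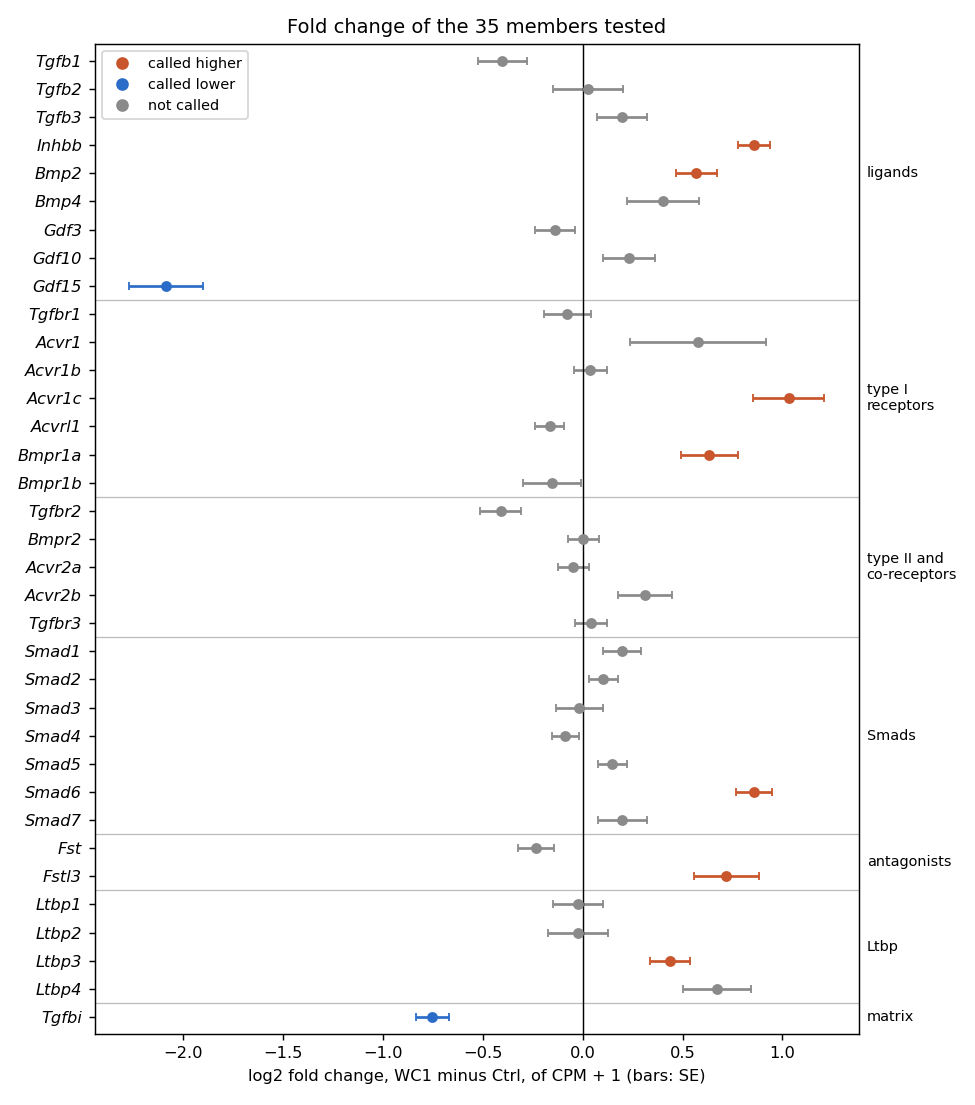
Log2 fold change of CPM + 1, WC1 minus Ctrl (x axis), of the 35 members tested, by role, with bars for the SE of limma (n = 2 libraries per group). Orange points are called higher, blue points called lower and grey points not called. The fold changes run from -2.09 in Gdf15 to 1.03 in Acvr1c, and among type II receptors and co-receptors no point is called.

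Among the 7 type I receptors, Acvr1c and Bmpr1a rose. Acvr1c (chr2:58267453-58357895, minus strand), the receptor ALK7, stood at 25.4 and 30.9 CPM in the Ctrl libraries and at 49.8 and 68.2 CPM in WC1, a log2 fold change of 1.03 ± 0.18 (adjusted p = 0.0271, limma). The lower WC1 library was well above the higher Ctrl library. Bmpr1a (chr14:34410734-34503341, minus strand), a receptor for Bmp2 and Bmp4, stood at 60.4 and 68.5 CPM in the Ctrl libraries and at 88.3 and 114 CPM in WC1, a log2 fold change of 0.63 ± 0.14 (adjusted p = 0.0433, limma). The other BMP type I receptor of its class, Bmpr1b, was low, between 0.262 and 0.529 CPM.

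The remaining type I receptors were not called. Tgfbr1, the TGF-beta type I receptor, ranged from 79.7 to 97.8 CPM with overlapping groups and a log2 difference of -0.08 ± 0.12, whose sign turned on the TPM scale (0.06), where the median of all genes stood 0.12 higher. Acvrl1, or ALK1, a receptor of endothelial cells, stood at 102 and 103 CPM in the Ctrl libraries and 95.4 and 87.8 CPM in WC1, a difference of -0.16 ± 0.07 (adjusted p = 0.168, limma) that was called without WC1 1 (-0.22, adjusted p = 0.0488). Acvr1b, an activin receptor, stood between 32.8 and 36.3 CPM in all libraries. Acvr1, the receptor ALK2, depended on a single library: its level was 14.1 CPM in Ctrl 2, against 30.3 CPM in Ctrl 1 and 31.6 and 31.3 CPM in the WC1 libraries. The log2 difference of Acvr1 was 0.58 ± 0.34 (adjusted p = 0.274, limma) with all libraries, 0.05 without Ctrl 2 and 1.10 without Ctrl 1, without a call in any of them.

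No type II receptor or co-receptor was called in limma with all libraries, the deposited scaling and no block. Tgfbr2, the TGF-beta type II receptor, came closest: it stood at 314 and 329 CPM in the Ctrl libraries and at 261 and 223 CPM in WC1. WC1 was below both Ctrl libraries, and the log2 difference of -0.41 ± 0.10 had a limma adjusted p of 0.0528. The adjusted p was under the threshold with median-of-ratios scaling (0.0482) and in DESeq2 on recovered reads (0.00461), and above it in edgeR (0.0563), on the TPM scale (0.0910) and without the filter (0.0794). Tgfbr2 was also called without WC1 1 (0.00367) and without WC1 2 (0.0407). Bmpr2 stood between 77.2 and 85.1 CPM, Acvr2a between 24.99 and 27.1 CPM, and Tgfbr3, the co-receptor betaglycan, between 99.1 and 111 CPM, each with overlapping groups and a log2 difference within 1 SE of 0. The sign of Acvr2a (-0.05 ± 0.08) turned on the TPM scale (0.08). Acvr2b, an activin type II receptor, was low, at 0.395 and 0.402 CPM in the Ctrl libraries and 0.639 and 0.842 CPM in WC1, and its difference of 0.31 ± 0.14 was not called (adjusted p = 0.163, limma). At such low levels the log2(CPM + 1) scale understates the fold, and edgeR on recovered reads gave a log2 difference of 0.91, also without a call (adjusted p = 0.106).

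Among the Smads, Smad6 was the only member called. Smad6 (chr9:63953076-64022059, minus strand) encodes an inhibitory Smad that acts mainly on BMP receptors. It stood at 8.76 and 8.87 CPM in the Ctrl libraries and at 17.2 and 16.4 CPM in WC1, a log2 fold change of 0.86 ± 0.09 (adjusted p = 0.0138, limma). The libraries of each group lay close together. Smad7, the inhibitory Smad that acts on TGF-beta receptors as well, stood at 6.08 and 7.35 CPM in the Ctrl libraries and at 7.82 and 7.85 CPM in WC1, a difference of 0.20 ± 0.12 (adjusted p = 0.295, limma).

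The receptor Smads and Smad4 were not called. Smad1 (0.20 ± 0.09), Smad5 (0.15 ± 0.07) and Smad2 (0.10 ± 0.07) stood higher in both WC1 libraries on the log2 scale, without a call. Smad3, the main mediator of fibrogenic TGF-beta responses, stood at 43.3 and 36.4 CPM in the Ctrl libraries and 42.0 and 36.7 CPM in WC1. Smad4 ranged from 46.3 to 51.2 CPM. The log2 differences were -0.02 ± 0.12 for Smad3 and -0.09 ± 0.07 for Smad4, and both had the opposite sign on the TPM scale (0.12 and 0.05). Smad9 was low, between 0.241 and 0.459 CPM.

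Among the antagonists, Fstl3 rose and Fst, which encodes follistatin, was not called. Fstl3 (chr10:79777272-79782630, plus strand) stood at 8.23 and 10.9 CPM in the Ctrl libraries and at 14.8 and 17.8 CPM in WC1, a log2 fold change of 0.72 ± 0.16 (adjusted p = 0.0449, limma). Fst stood at 11.8 and 11.7 CPM in the Ctrl libraries and at 9.77 and 9.98 CPM in WC1. Both WC1 libraries were below both Ctrl libraries, but the difference of -0.23 ± 0.09 did not pass the test (adjusted p = 0.132, limma).

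Of the 4 latent TGF-beta binding proteins, Ltbp3 was called. Ltbp3 (chr19:5740904-5758532, plus strand) stood at 300 and 342 CPM in the Ctrl libraries and at 419 and 450 CPM in WC1, a log2 fold change of 0.44 ± 0.10 (adjusted p = 0.0456, limma). Ltbp4 stood at 154 and 186 CPM in the Ctrl libraries and at 234 and 313 CPM in WC1, and its difference of 0.67 ± 0.17 missed the threshold (adjusted p = 0.0551, limma), as it did in edgeR (0.0577), with median-of-ratios scaling (0.0580) and without the filter (0.0902). Ltbp4 was called on the TPM scale (0.0485) and in DESeq2 (0.00127), and also without WC1 1 (0.00304) and without WC1 2 (0.0437). Ltbp1 and Ltbp2 ranged from 40.8 to 62.1 CPM with overlapping groups, and their log2 differences of -0.02 ± 0.13 and -0.02 ± 0.15 turned to 0.11 and 0.11 on the TPM scale.

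Tgfbi (chr13:56609523-56639562, plus strand), the matrix protein whose promoter is printed above, fell. It stood at 205 and 216 CPM in the Ctrl libraries and at 131 and 118 CPM in WC1, so that both WC1 libraries were below both Ctrl libraries. Its log2 fold change was -0.75 ± 0.08 (adjusted p = 0.0142, limma), and its mean level in WC1 was 0.592 times that in Ctrl.

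The levels of different genes were compared on the TPM scale, which corrects for transcript length. Tgfb1 was the most abundant ligand in every library, at 173 and 181 TPM in Ctrl and 163 and 134 TPM in WC1. Gdf15 came next in Ctrl, at 78.9 and 67.6 TPM, whereas in WC1, at 20.6 and 14.8 TPM, it was below Inhbb, which stood at 40.9 and 39.6 TPM. Among type I receptors Acvrl1 was the most abundant in Ctrl, with 35.2% and 37.9% of the summed TPM of the 7 genes. It still led in WC1, with 30.2% and 27.7%. Bmpr1a took 13.7% and 16.6% in Ctrl and 18.4% and 23.7% in WC1, and Acvr1c took 3.48% and 4.56% in Ctrl and 6.30% and 8.60% in WC1. Both receptors that rose thus also took a larger part of the type I receptor transcripts in each WC1 library. Tgfbr2 held 84.9% and 84.5% of the summed TPM of the 4 type II receptors in Ctrl and 82.2% and 78.8% in WC1.

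Shares were also compared within the inhibitors. Smad6 made up 68.3% and 64.3% of the summed TPM of Smad6 and Smad7 in Ctrl and 76.7% and 75.7% in WC1. Fstl3 made up 48.8% and 55.8% of the summed TPM of Fst and Fstl3 in Ctrl and 67.1% and 70.6% in WC1. By contrast, Ltbp3 held 56.9% and 56.0% of the summed TPM of the 4 Ltbp genes in Ctrl and 56.6% and 54.0% in WC1. These shares are ratios within a library and show unequal change among the genes summed. With 2 libraries per group an exact two-sided permutation test of a share cannot give a p below 0.333, so no test is given.

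**Figure D3:**
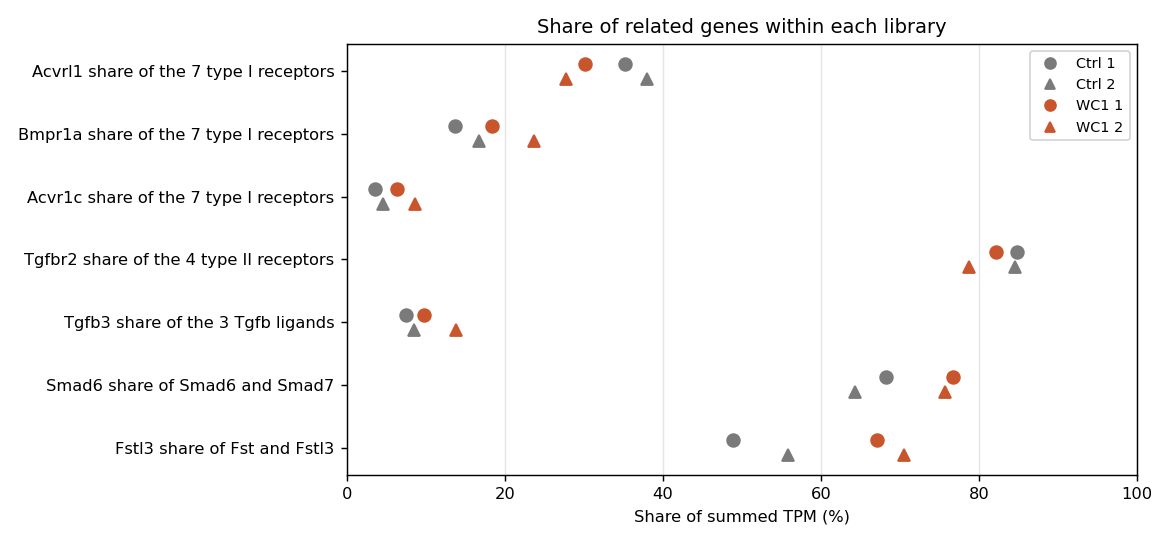
Share (%) of 1 gene in the summed TPM of a group of related genes, by library, with grey symbols for Ctrl and orange symbols for WC1 (circles, library 1, and triangles, library 2). The rows were picked among shares whose groups did not overlap, so that both WC1 libraries lie on the same side of both Ctrl libraries in each, and shares that overlapped, such as that of Ltbp3, are not drawn. Of those drawn, the gaps are widest for Fstl3 (48.8% and 55.8% in Ctrl, 67.1% and 70.6% in WC1) and Smad6 (68.3% and 64.3% in Ctrl, 76.7% and 75.7% in WC1).

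The 9 calls were then examined across settings. All 9 were also called with a pseudocount of 0.5, median-of-ratios scaling, the TPM scale, edgeR and DESeq2. Without the filter on low levels, 4 of the 9 were called (Inhbb, Smad6, Gdf15 and Tgfbi), and the adjusted p of the other 5 lay between 0.0526 and 0.0785. The calls depended on the Ctrl libraries: without Ctrl 1 and without Ctrl 2, limma called 0 of the 9, and the adjusted p ranged from 0.114 (Gdf15) to 0.342 (Ltbp3) and from 0.0891 (Gdf15) to 0.180 (Ltbp3). This was shared by all genes, since limma then called 2 higher and 4 lower genes without Ctrl 1, and 6 and 6 without Ctrl 2. At an unadjusted p under 0.05, 8 of the 9 passed without Ctrl 1 and 9 without Ctrl 2. All 9 were called without WC1 1, and 8 without WC1 2, where Fstl3 had an adjusted p of 0.0674. In each of these settings the direction of the 9 members stayed the same.

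**Figure D4:**
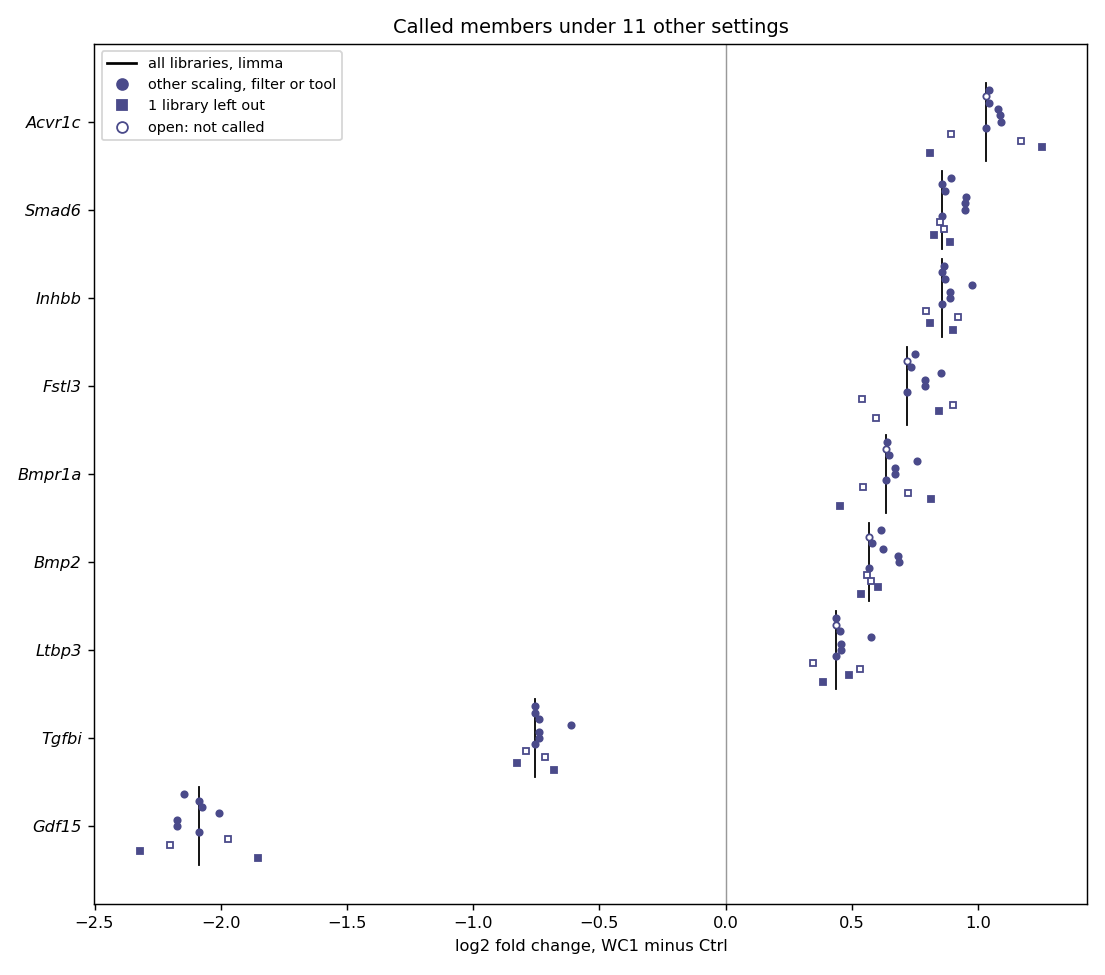
Log2 fold change, WC1 minus Ctrl (x axis), of the 9 called members under 11 other settings. Black lines mark the value with all libraries in limma, circles another pseudocount, filter, scaling, tool or block, squares the removal of 1 library, and open symbols a value that was not called. No symbol crosses 0, the squares of Gdf15 run from -2.32 to -1.85, and the open squares are the settings without Ctrl 1 or Ctrl 2 and, for Fstl3, also without WC1 2.

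Markers of cell types moved with these results. In the same libraries, the summed CPM of 10 adipocyte markers was 10359 and 11659 in Ctrl and 18575 and 23785 in WC1, with 7 of 10 called higher. Endothelial markers summed to 469 and 516 CPM in the Ctrl libraries and 882 and 1145 CPM in WC1, with 5 of 8 called higher. Pericyte and smooth muscle markers summed to 180 CPM in both Ctrl libraries and to 280 and 340 CPM in WC1, with 5 of 7 called higher. Macrophage markers summed to 12447 and 11367 CPM in the Ctrl libraries and 7399 and 5204 CPM in WC1, with 4 of 10 called lower. Fibroblast and progenitor markers summed to 2482 and 2529 CPM in the Ctrl libraries and 2330 and 2238 CPM in WC1, with 3 of 10 called lower. This last list was split: 3 of its 10 genes had a positive log2 fold change. In WC1, 2 of them lay above both Ctrl libraries and 6 below both. Of all genes tested, 10.2% were called higher and 7.71% lower. In whole tissue, fewer cells of a type and less RNA per cell cannot be told apart, and the part of these shifts in the results for the 38 genes was not tested. Mesothelial markers ranged from 64.1 to 170 CPM and T and NK cell markers from 8.11 to 13.4 CPM, with overlapping groups and 0 of 7 and 0 of 8 genes called in limma (0 and 1 at an unadjusted p under 0.05). B cell markers stood at 2.59 to 4.47 CPM in the Ctrl libraries and at 7.47 and 26.9 CPM in WC1 and erythroid markers at 208 and 342 CPM in the Ctrl libraries and 456 and 491 CPM in WC1, both higher in each WC1 library, with 1 gene of each list called. Of 6 epididymis markers with a row, 5 were at 0 in every library.

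Beyond the 38 members, 57 other genes of the pathway, also chosen with earlier results known, were counted, and 41 of them passed the filter. Of these, 9 were called higher (22.0%, against 10.2% of all genes) and 1 was called lower (2.44%, against 7.71%), with a median log2 fold change of 0.08. Other BMP ligand genes were among those that rose. Bmp3, an atypical BMP that antagonises other BMPs and is known as an adipose-derived factor, stood at 19.3 and 19.8 CPM in the Ctrl libraries and at 42.0 and 45.5 CPM in WC1, a log2 fold change of 1.12 ± 0.08 (adjusted p = 0.00869, limma). Bmp7, a ligand that promotes brown adipocyte differentiation, stood at 0.643 and 0.506 CPM in the Ctrl libraries and at 2.57 and 1.84 CPM in WC1 (1.02 ± 0.16, adjusted p = 0.0241, limma). Mstn, which encodes myostatin, stood at 0.907 and 0.885 CPM in the Ctrl libraries and at 2.69 and 3.38 CPM in WC1 (1.08 ± 0.14, adjusted p = 0.0179, limma). For Bmp7 and Mstn both groups were low, and the log2(CPM + 1) scale understates the fold of such genes. In edgeR on recovered reads the log2 fold changes were 1.96 for Bmp7 and 1.78 for Mstn. The other 6 higher genes were not all ligands: they were Amhr2, Bmp6, Chrdl1, Crim1, Lrrc32 and Pmepa1. They differed by between 0.50 and 1.03 on the log2 scale. The highest, Amhr2, was also low, at 0.687 and 0.540 CPM in the Ctrl libraries and 1.67 and 3.05 CPM in WC1. Its edgeR log2 fold change was 1.97.

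The gene called lower was Bmper, which encodes a secreted BMP-binding modulator. It stood at 109 and 96.4 CPM in the Ctrl libraries and at 43.6 and 29.8 CPM in WC1, a log2 fold change of -1.48 ± 0.19 (adjusted p = 0.0175, limma). Both WC1 libraries were far below both Ctrl libraries.

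Genes that the pathway is known to induce moved in both directions. Both lists of such genes were also chosen with earlier results known. Of 20 TGF-beta target genes, all of which passed the filter, 4 were called higher (20.0%, against 10.2% of all genes) and 1 lower, against 7.71% of all genes, with a median log2 fold change of -0.01. Acta2, Col1a1, Col3a1 and Timp1 of this list are among the genes for which the study lists quantitative PCR primers, and so is the member Tgfb1. The study measured Tgfb1 by PCR in WC1 and Ctrl fat and reported a decrease in WC1, the direction of the uncalled difference above. These genes are therefore not independent of its choice of genes. Acta2, which encodes smooth muscle actin and marks both myofibroblasts and vessel walls, rose by 1.19 ± 0.09 on the log2 scale (adjusted p = 0.00878, limma), beside the pericyte and smooth muscle markers given above. Lox, a collagen crosslinking enzyme, stood at 106 and 114 CPM in the Ctrl libraries and at 168 and 146 CPM in WC1 (0.51 ± 0.10, adjusted p = 0.0313, limma), and Cyr61, a matricellular protein, at 60.9 and 69.0 CPM in the Ctrl libraries and 96.7 and 87.6 CPM in WC1 (0.50 ± 0.09, adjusted p = 0.0313, limma). The fourth, Thbs1, was named after its values were seen. It encodes thrombospondin, an activator of latent TGF-beta, and stood at 150 and 196 CPM in the Ctrl libraries and at 327 and 259 CPM in WC1 (0.76 ± 0.17, adjusted p = 0.0451, limma). Postn, which encodes the matrix protein periostin, fell from 1150 and 997 CPM in Ctrl to 718 and 504 CPM in WC1 (-0.83 ± 0.20, adjusted p = 0.0489, limma), and on the TPM scale it was not called (adjusted p = 0.0604).

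Of 8 BMP target genes, 7 were tested, 2 were called higher (28.6%, against 10.2% of all genes) and 1 lower (14.3%, against 7.71%), with a median log2 fold change of 0.49. Id3, an inhibitor of differentiation that BMP Smads induce directly, stood at 46.3 and 43.0 CPM in the Ctrl libraries and at 66.6 and 71.8 CPM in WC1, a log2 fold change of 0.62 ± 0.08 (adjusted p = 0.0175, limma). Hey1, a transcription factor that Notch signalling also induces and that is known in endothelial cells, stood at 3.32 and 5.02 CPM in the Ctrl libraries and at 9.32 and 11.6 CPM in WC1 (1.16 ± 0.20, adjusted p = 0.0273, limma). Id2, a relative of Id3, went the other way, from 55.8 and 52.5 CPM in Ctrl to 36.5 and 26.1 CPM in WC1 (-0.79 ± 0.16, adjusted p = 0.0378, limma), with an adjusted p of 0.0503 on the TPM scale. The 3 called genes of this list thus differed in direction, and the WC1 libraries lay above both Ctrl libraries in 4 of the 7 (against 32.7% of all genes) and below both in the other 3 (against 36.6%).

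**Figure D5:**
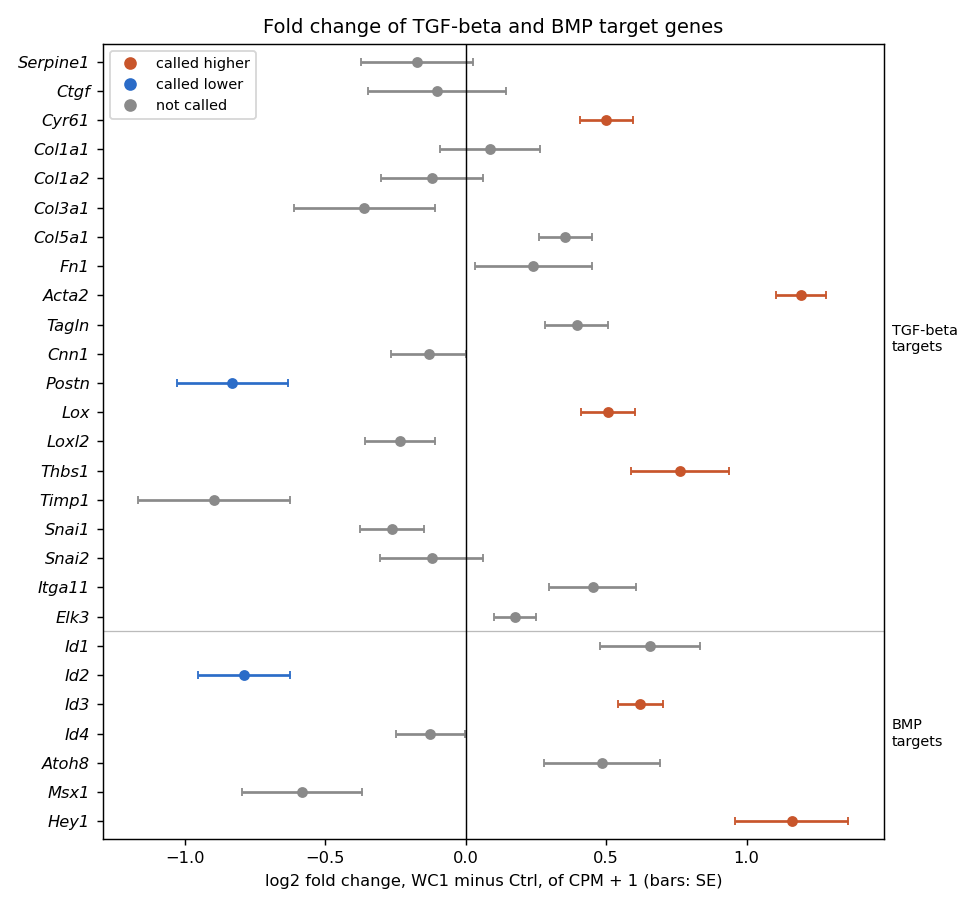
Log2 fold change of CPM + 1, WC1 minus Ctrl (x axis), of 20 TGF-beta and 7 BMP target genes tested, with bars for the SE of limma (n = 2 libraries per group). Orange points are called higher, blue points called lower and grey points not called. In both lists called genes lie on both sides of 0, from -0.83 (Postn) to 1.19 (Acta2) among TGF-beta targets and from -0.79 (Id2) to 1.16 (Hey1) among BMP targets.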

How the data were processed

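RNA of epididymal adipose tissue had been made into directional poly(A) libraries, 2 per group, with groups taken from the sample titles. The submitters' processing notes name fastp, HISAT2, StringTie and mm10, and no source used here gives the read counter, annotation or strand setting. The deposited signal that the authors call CPM was proportional to reads: its columns summed to between 97.6% and 105% of the sum of plain CPM, and 100% of values were whole reads to within 0.01 read. The authors also deposited TPM, which is corrected for transcript length. 3 reads corresponded to between 0.0345 and 0.0492 CPM, and such limits cover counting error only.

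The 14106 of 24421 genes that reached 0.5 CPM in 2 or more libraries were tested on log2(CPM + 1) by limma 3.58.1 in R 4.3.3 with an abundance trend. Its two-sided p-values were adjusted over all of these genes by the Benjamini-Hochberg method, at a threshold of 0.05. An exact permutation test of 2 against 2 libraries cannot go below 0.333. Alternatives were a pseudocount of 0.5, no filter, median-of-ratios scaling, the TPM matrix, edgeR 4.0.16 and DESeq2 1.42.0 on the recovered reads, a replicate block and leaving out each library. The fit was also run on counts simulated with the levels and spread of these same libraries. Such counts cannot test that spread, and no call rests on them.

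The members and lists were chosen with earlier results of these data known. Every member is described, and from each other list the 3 called genes of smallest p in each direction are named. Thbs1 and the remaining higher pathway genes are named in addition. Symbols were matched directly for all 38 members, and for 3 other listed genes through a RefSeq synonym. Gene positions came from GENCODE M21 (GRCm38), and promoter windows from RefSeq (GRCm38.p6). Overlaps between genes are not reported here.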

Additional observations from a re-analysis of the deposited data

How the results depend on the processing

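With 2 libraries per group, calls rest on a spread that limma estimates partly from all genes. Depth limits genes near 3 reads, between 0.0345 and 0.0492 CPM. Refitted values were counted for 21 genes named and called, without Amhr2, Bmp6, Chrdl1, Crim1, Lrrc32 and Pmepa1. Of these 231 values, 175 stayed called, 56 lost the call (43 of them with a library left out) and 0 changed sign. When a library was left out, the lone library of a group was assumed to vary like the others. The cause of the shifts below was not tested.

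Members called higher (7) and lower (2) numbered 2 and 2 without the filter, where 4.35% and 2.93% of 18132 genes were called higher and lower, compared to 10.2% and 7.71% of 14106 with the filter, and 4 members were called lower in DESeq2 (Tgfb1 and Tgfbr2 in addition), which called 12.3% of all genes lower. Leaving out a library gave 0 to 9 higher and 0 to 5 lower members, the highest counts without WC1 1, where 17.2% of all genes were called higher and 19.5% lower. The 0 counts came from limma without Ctrl 1 and without Ctrl 2, with 7 and 9 higher and 2 and 2 lower members at an unadjusted p under 0.05. The median log2 fold change of the members, 0.04 with all libraries, was 0.18 on the TPM scale, where the median of all genes moved up by 0.12, and 0.066 to 0.14 with a library left out. Of the other pathway genes, 9 were higher and 1 was lower. Leaving out a library gave 0 to 15 higher (15 without WC1 1) and 0 to 7 lower, and DESeq2 gave 2 lower. Of the target genes, 6 were higher and 2 lower. Without the filter 2 were higher and 0 lower (10 and 3 at an unadjusted p under 0.05), on the TPM scale 10 higher and 0 lower (12 and 3), where 14.6% and 4.13% of all genes were called higher and lower, and in DESeq2 10 higher, where 15.1% of all genes were. Leaving out a library gave 0 to 8 higher and 0 to 5 lower target genes.

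Signs turned in 10 members, none of them called. On the TPM scale the log2 fold changes were 0.060 (Tgfbr1), 0.083 (Acvr2a), 0.12 (Smad3), 0.051 (Smad4), 0.11 (Ltbp1) and 0.11 (Ltbp2). In edgeR they were 5.7e-05 (Ltbp1) and 0.0025 (Ltbp2), and in DESeq2 0.0021 (Ltbp2). With a library left out they ranged from -0.20 to 0.25 (Tgfb2), -0.225 to 0.067 (Tgfbr1), -0.018 to 0.10 (Tgfbr3), -0.065 to 0.073 (Bmpr2), -0.026 to 0.10 (Acvr1b), -0.14 to 0.105 (Smad3), -0.19 to 0.14 (Ltbp1) and -0.22 to 0.17 (Ltbp2).

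Libraries share only a number across groups, which the labels do not tie to a litter or day, and over 14106 genes the difference between library 1 and library 2 correlated with r = 0.19 between groups. With the replicate number as a block, 8 members were called higher and 3 lower, all 9 earlier calls among them, where 12.5% of all genes were called higher and 10.6% lower. The gained members were Ltbp4 (adjusted p = 0.0109) and Tgfbr2 (adjusted p = 0.0493). Under the block, 4 other pathway genes and 4 target genes were called lower.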
